A study of Mus musculus with 2 samples.

Results

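Microtubules carry insulin granules and other cargo through the beta cell, and the genes that build and use them are described here in pancreatic islets of mice that carried a transgene for the kinase Brsk2. The genes were chosen by name from the deposited gene count table as protein-coding rows for alpha, beta and gamma tubulins and the gamma-tubulin complex, numbered kinesins and kinesin light chains, the microtubule-associated proteins Map1a, Map1b, Map1s, Map2, Map4 and the Map7 family, end-binding proteins, stathmins, cytoplasmic dyneins and dynactin. This gave 95 genes of 54532 rows, of which 22046 were protein-coding. With at least 10 reads over both libraries 86 of the 95 were measured, and 74 had at least 100 reads. Another 5 had 1 to 9 reads (Tuba3a, Kif6, Kif7, Kif14 and Map7d3), and 4 had none in either library (Tuba3b, Tubal3, Kif2b and Kif28). A row caught by the names, Kif1bp, encodes a protein that binds kinesins and is not itself a motor. It was kept and is given apart.

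The transgenic library, titled Line20, came from islets that carried a Brsk2 transgene, and the wild-type library came from wild-type islets. All mice were male C57BL/6, aged 10 to 12 weeks by the label, and in both genotypes they drank doxycycline in their water for 4 days at 8 to 10 weeks, so the controls received the drug too. The labels are the only source on the mice: which promoter drove the transgene, and whether a library pooled several mice, they do not say. There was 1 library per group, with 16832312 reads assigned to genes in the transgenic and 20389499 in the wild-type library. The differences therefore have no replicate check, and no test between groups was made. Levels are CPM, each gene's reads relative to its library's total after TMM scaling between the libraries. A ratio is transgenic over wild type, with its exact 95% interval in brackets, which covers counting error only. Brsk2 itself had 94.3 CPM in the transgenic library and 36.4 CPM in the wild-type library, a ratio of 2.59 [2.37, 2.83].

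A microtubule is a polymer of alpha and beta tubulin dimers that grows from gamma-tubulin ring complexes. Kinesins mostly carry cargo towards the growing plus end and cytoplasmic dynein, with its cofactor dynactin, towards the minus end, while associated proteins and stathmins set how stable the polymer is. Brsk kinases are known in neurons for setting axon and dendrite identity and for phosphorylating microtubule-associated proteins, tau among them. In beta cells microtubules are known to form a dense mesh that starts at the Golgi and along which insulin granules move. The tubulin messenger RNAs are also known to be degraded during translation when free tubulin dimers are plentiful, through the adaptor TTC5, which recognises the first residues of the nascent alpha or beta tubulin chain.

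Those first residues are encoded by the opening codons of each alpha and beta tubulin gene. They are shown for 7 of the 16 because the microtubule genes called lower were all tubulins. Tubb6, the other gene called lower, is named only. The lines give the first 30 coding bases, 5′ to 3′, with the first 3 codons in capitals, from GENCODE release M21 transcripts on GRCm38. Tuba1a, Tuba1c, Tuba4a and Tubb4b were at least 1.5-fold lower in the transgenic library, while Tuba1b, Tubb2a and Tubb5 did not pass that limit, and gamma tubulin Tubg1 is given for contrast.
Tuba1a: ATGCGTGAGtgcatctccatccatgttggc
Tuba1c: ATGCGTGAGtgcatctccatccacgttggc
Tuba4a: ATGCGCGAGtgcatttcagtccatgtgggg
Tubb4b: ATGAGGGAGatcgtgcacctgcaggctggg
Tuba1b: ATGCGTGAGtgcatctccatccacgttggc
Tubb2a: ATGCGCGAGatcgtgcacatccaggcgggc
Tubb5: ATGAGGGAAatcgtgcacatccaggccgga
Tubg1: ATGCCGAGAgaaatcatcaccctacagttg
The start codons lie on chromosome 15 at 98953453 (Tuba1a, minus strand), 99030422 (Tuba1c, plus) and 98934335 (Tuba1b, minus), on chromosome 1 at 75219195 (Tuba4a, minus), on chromosome 2 at 25224590 (Tubb4b, minus), on chromosome 13 at 34077929 (Tubb2a, minus), on chromosome 17 at 35838053 (Tubb5, minus) and on chromosome 11 at 101120194 (Tubg1, plus). The 3 spellings searched at the start of the coding strand were ATGCGNGAN, ATGAGAGAN and ATGAGGGAN. They cover the first 3 codons only and were written for the known tubulin opening, so a match in alpha and beta tubulins is not a result of these data. All 16 alpha and beta tubulin genes began with one of them, against 49 of 21559 other protein-coding genes (0.227%), and Tubg1 did not. The opening was held alike by tubulin genes that passed the limit and by tubulin genes that did not. RNA decay was not measured, and its part in the ratios was not tested. Tuba1b and Tuba1c were identical over all 30 bases.

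Across the 86 measured genes, 5 were lower by at least 1.5-fold in the transgenic library and 5 were higher by as much, each with an interval that excluded 1. The same rule called 5.51% of 14423 protein-coding genes with at least 10 reads lower and 7.07% higher, so the microtubule genes as a whole stood near the background. The 5 lower genes were all tubulins: Tuba1a, Tuba4a, Tuba1c, Tubb4b and Tubb6. The 5 higher ones came from other classes: the chromokinesin Kif22, the cilium-associated kinesin Kif24, the stathmins Stmn2 and Stmn4, and the dynein intermediate chain Dync1i1. Among the 74 genes with at least 100 reads, 5 were lower and 3 higher, against 5.43% and 5.17% of 11390 protein-coding genes. The median log2 ratio of the 74 was -0.02, and that of the 11390 was -0.02. None of the 95 genes was in the authors' deposited table of differing genes, whose absolute log2 fold changes began at 1.57.

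**Figure D1:**
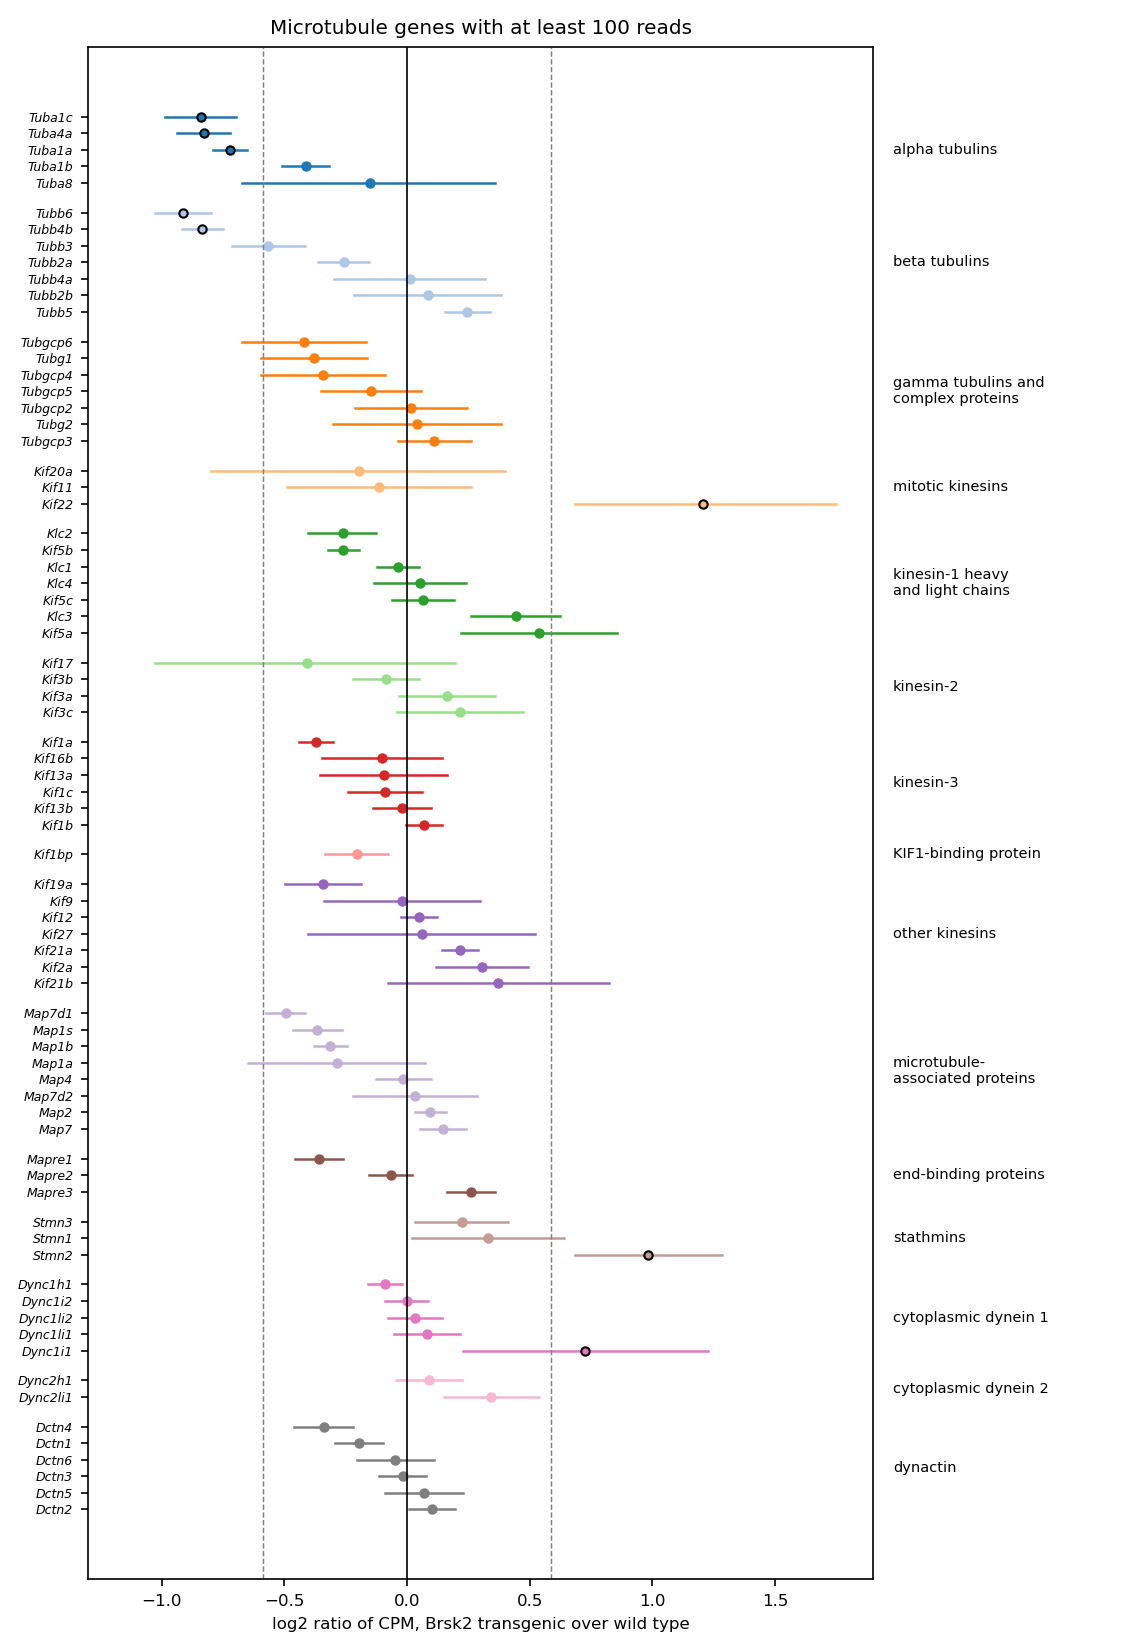
log2 ratio of CPM, Brsk2 transgenic over wild type, for the 74 microtubule genes with at least 100 reads, grouped by role; bars are exact 95% counting intervals, dashed lines mark 1.5-fold and black rims mark genes past it with an interval that excludes 1. The rimmed points on the left are 5 tubulins, between -0.91 (Tubb6) and -0.72 (Tuba1a), while most motors lie near 0, with Kif22 and Dync1i1 past the limit on the right.

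The 16 alpha and beta tubulins together had 731 CPM in the transgenic library and 1068 CPM in the wild-type library, a ratio of 0.684 [0.669, 0.700]. Of the 13 with at least 10 reads, 5 were called lower at 1.5-fold with an interval that excluded 1, and none higher. The other 73 measured microtubule genes held none that was called lower and 5 (6.85%) that were called higher. Of protein-coding genes with at least 10 reads 5.51% were lower and 7.07% higher. Tubb1 and, among the other 73, Kif4 had ratios of 0.627 and 0.536 on few reads, with intervals that held 1. The split into alpha and beta tubulins and other genes was made with earlier results of these data known. The summed level of all 79 genes other than alpha and beta tubulins, whatever their reads, was 3741 CPM in the transgenic library and 3916 CPM in the wild-type library, a ratio of 0.955 [0.945, 0.965]. Among the 12 tubulins with at least 100 reads the median log2 ratio was -0.49. At 1000 reads or more, where counting error is small, 5 of 9 alpha and beta tubulins were lower, while 4.61% of 5769 protein-coding genes were lower and 2.48% higher. These were bulk islets, in which fewer cells of a type and less RNA per cell cannot be told apart.

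The alpha tubulins were lower as a group. Tuba1a, the main alpha tubulin of neurons and here the most abundant tubulin gene per kilobase, had 2542 reads or 149 CPM in the transgenic library and 4940 reads or 246 CPM in the wild-type library, a ratio of 0.607 [0.578, 0.637]. Tuba4a, an isotype whose gene does not encode the usual terminal tyrosine, had 60.4 CPM in the transgenic library and 107 CPM in the wild-type library, a ratio of 0.564 [0.523, 0.608]. Tuba1c, a broadly expressed isotype, had 34.6 CPM in the transgenic library and 61.9 CPM in the wild-type library, a ratio of 0.559 [0.506, 0.617]. All 3 therefore stood at about the same ratio. Tuba1b, another broadly expressed isotype, was lower by less, at 85.0 CPM in the transgenic library and 113 CPM in the wild-type library, a ratio of 0.751 [0.703, 0.803] that did not pass 1.5-fold. The rare Tuba8 had 58 transgenic and 76 wild-type reads, a ratio of 0.900 [0.628, 1.28], and Tuba3a had 1 and 5. The summed level of all 8 alpha tubulins was 332 CPM in the transgenic library and 532 CPM in the wild-type library, a ratio of 0.625 [0.605, 0.646].

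Tuba1b, Tuba1a and Tuba1c are neighbours on chromosome 15 of GRCm38, at 98931425 to 98934565 and 98949837 to 98953703 on the minus strand and 99029891 to 99038110 on the plus strand. Tuba4a lies elsewhere, on chromosome 1 at 75214228 to 75219865, minus strand. It overlaps the kinase gene Stk16 on the opposite strand, which had 904 transgenic and 1204 wild-type reads and a ratio of 0.886 [0.812, 0.966]. Counting by strand is not stated, and without it reads of Tuba4a and Stk16 cannot be told apart. Tuba1a overlaps Gm49450 on the same strand, which had 3 transgenic and 10 wild-type reads. Tubb4b overlaps Fam166a on the opposite strand, which had 11 transgenic and 18 wild-type reads.

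The beta tubulins differed among themselves. Tubb4b, a broad isotype that is also prominent in cilia (GRCm38 chromosome 2, 25222160 to 25224702, minus strand), had 98.4 CPM in the transgenic library and 175 CPM in the wild-type library, a ratio of 0.561 [0.529, 0.595]. Tubb6, the divergent class V isotype (GRCm38 chromosome 18, 67390717 to 67402748, plus strand), had 907 transgenic and 2012 wild-type reads, or 30.3 against 56.9 CPM per kilobase with the transgenic value first, a ratio of 0.532 [0.491, 0.575], the lowest of the 74 genes with at least 100 reads. Tubb3, the class III isotype widely used as a neuronal marker, had 34.5 CPM in the transgenic library and 51.0 CPM in the wild-type library. Its ratio of 0.676 [0.610, 0.749] lay just inside the 1.5-fold limit, so it was not counted as lower. Tubb2a, a neuron-enriched isotype, had 78.3 CPM in the transgenic library and 93.7 CPM in the wild-type library, a ratio of 0.836 [0.779, 0.897].

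Tubb5, the class I isotype found in most cells, was not lower. It had 113 CPM in the transgenic library and 95.5 CPM in the wild-type library, a ratio of 1.19 [1.11, 1.26], short of 1.5-fold but with an interval above 1. The minor isotypes Tubb2b (178 transgenic and 198 wild-type reads, 1.06 [0.861, 1.30]) and Tubb4a (164 transgenic and 192 wild-type reads, 1.01 [0.813, 1.25]) had ratios near 1, and Tubb1, the isotype of platelets, had 17 transgenic and 32 wild-type reads. In sum the 8 beta tubulins reached 399 CPM in the transgenic library and 536 CPM in the wild-type library, a ratio of 0.743 [0.721, 0.766].

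**Figure D2:**
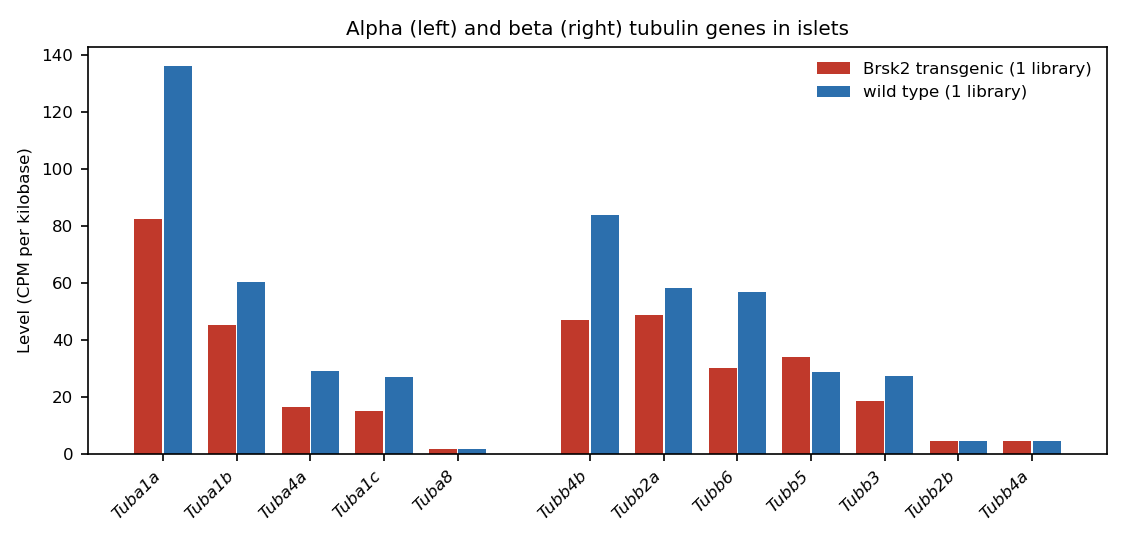
Level of each alpha and beta tubulin gene with at least 100 reads in CPM per kilobase of gene length, in the transgenic (left bar) and wild-type (right bar) library, 1 library per group. Tuba1a is the highest in both, at 82.7 against 136 CPM per kilobase (transgenic first), and Tubb5 is the one abundant gene whose transgenic bar is the taller, at 34.0 against 28.7 CPM per kilobase.

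The mix of isotypes, taken per kilobase within each family, differed most for Tubb5. It made up 18.1% of beta tubulin in the transgenic library and 10.8% in the wild-type library, and Tubb2a 25.9% against 22%. Tubb4b made up 25.1% against 31.7%, and Tubb6 16.1% against 21.5%. Per kilobase Tubb2a and Tubb4b thus stood at nearly equal shares in the transgenic library, where Tubb4b led in wild type. This depends on the gene lengths used. By reads not divided by length, Tubb4b led Tubb2a in the transgenic library too, at 24.7% against 19.6%. Among alpha tubulins Tuba1a held 51.3% against 53.5% and Tuba1b 28.2% against 23.7%, with Tuba4a at 10.1% against 11.4% and Tuba1c at 9.40% against 10.6%. Shares within a family do not depend on how the libraries are scaled.

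**Figure D3:**
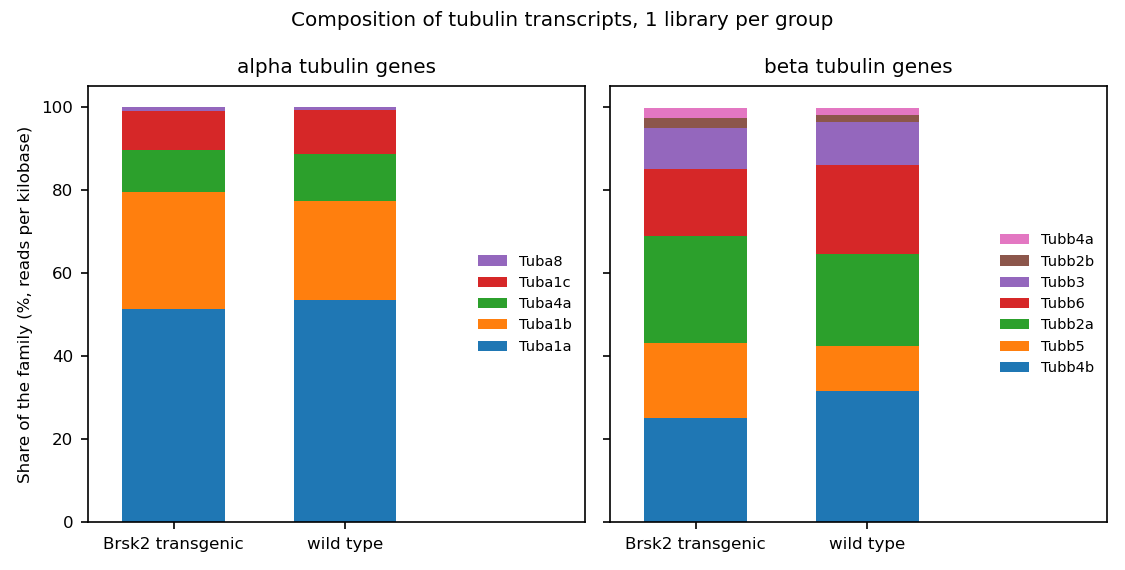
Share of each isotype in its family (%, reads per kilobase) in the transgenic and wild-type library, alpha tubulins left and beta tubulins right; isotypes too rare to be seen are not drawn. The orange beta segment, Tubb5, covers 18.1% in the transgenic and 10.8% in the wild-type library.

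Tubulin genes are similar enough that reads can fit several of them, which limits single isotype values. Coding sequences of the 5 alpha tubulins with at least 100 reads were 78.8% to 98.3% identical over 10 pairs, the highest being Tuba1a with Tuba1b. The 7 beta tubulins were 80.2% to 96.5% identical over 21 pairs, the highest being Tubb2a with Tubb2b. Of the 50-base windows of a transcript, the share also found in a transcript of another gene was 75.5% for Tuba1a, 83.1% for Tuba1b, 61.0% for Tuba1c, 49.6% for Tubb2a and 55.5% for Tubb4b, and 48.8% for Tuba4a, nearly all of it the overlap with Stk16. For Tubb4b the main partner was the processed pseudogene Tubb4b-ps1, which had 17 transgenic and 46 wild-type reads. Tubb6 and Tubb3 shared no window, Tubb5 shared 0.115% and Tubb4a 0.184%. The low ratio of Tubb6 and the ratio of Tubb5 above 1 were thus measured on transcripts that are nearly or wholly unique at that length, while the split among Tuba1a, Tuba1b and Tuba1c is uncertain. The summed alpha tubulin ratio of 0.625 does not depend on how reads were divided among these 3 genes. It can depend on whether reads that fit several genes were counted at all. How reads that fit several genes were handled is not stated.

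Markers of islet and other cell types differed between the same libraries. Of the 9 beta cell markers checked, 5 passed 1.5-fold downwards and none upwards, with a summed level of 194393 against 255209 CPM, transgenic first. The list did not move as a whole. Nkx6-1 was at 1.37 [1.31, 1.43] and Pdx1 at 1.05 [0.981, 1.13], while Ins2 and Iapp were lower but short of the limit. Of 5 alpha cell markers, 3 were higher and none lower (31146 against 19607 CPM), and all 12 acinar markers were higher (46069.8 against 10492 CPM). Of the markers of other cells, 1 of 4 was called higher for delta and gamma cells and 2 of 5 for duct. The count was 5 of 8 for fibroblasts and mural cells and 0 of 4 for endothelium. For macrophages it was 1 of 4, and for lymphocytes 1 of 3 measured. The lymphocyte call was Ighm, while Cd79a was at 0.768 [0.688, 0.857] and Ms4a1 had a ratio below 1 on few reads. None of these markers of other cells was called lower. Background shares over protein-coding genes were 7.07% for higher calls and 5.51% for lower calls. Counts of 0 to 2 thus say little of lists this small. None of the markers was at 0 in either library. Their part in the tubulin values was not tested.

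Gamma tubulin and the proteins of its ring complex nucleate microtubules, and 0 of 7 genes passed 1.5-fold. At the background of 5.17% higher and 5.43% lower, a count of 0 says little of a class this small. Tubg1, the main gamma tubulin, had 17.1 CPM in the transgenic library and 22.2 CPM in the wild-type library, a ratio of 0.770 [0.662, 0.894], and its neighbour on chromosome 11, Tubg2, had a ratio of 1.03 [0.811, 1.30]. Of the complex proteins, Tubgcp6 (0.748 [0.627, 0.890]) and Tubgcp4 (0.790 [0.663, 0.940]) had intervals below 1, while Tubgcp5 (0.905 [0.785, 1.04]), Tubgcp2 (1.01 [0.864, 1.18]) and Tubgcp3 (1.08 [0.975, 1.2]) had intervals that held 1. The median log2 ratio over these 7 genes was -0.14, against -0.02 for protein-coding genes with the same read minimum.

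The kinesins other than the mitotic ones were near level in sum between the libraries. None of 24 such kinesins and light chains with at least 100 reads passed 1.5-fold, against 5.17% higher and 5.43% lower of protein-coding genes. The summed level of all 31 in the class, whatever their reads, was 1480.1 CPM in the transgenic library and 1534 CPM in the wild-type library, a ratio of 0.965 [0.949, 0.981]. The median log2 ratio of the 24 was 0.01.

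Kif5b, the ubiquitous kinesin-1 heavy chain that moves insulin granules in beta cell lines, had 210.0 CPM in the transgenic library and 251 CPM in the wild-type library, a ratio of 0.836 [0.801, 0.873]. Its neuronal relatives had higher ratios: Kif5c was at 1.05 [0.959, 1.14], and the rarer Kif5a, with 187 transgenic and 152 wild-type reads, was at 1.45 [1.17, 1.81]. Among light chains, which link the motor to cargo, Klc1 was most abundant, at 119.5 against 123 CPM (transgenic first) and a ratio of 0.975 [0.919, 1.03]. Klc2 was at 0.834 [0.757, 0.917], Klc4 at 1.04 [0.910, 1.18] and Klc3 at 1.36 [1.2, 1.54]. The 7 kinesin-1 genes thus ran on either side of 1, with intervals below 1 for Kif5b and Klc2 and above 1 for Kif5a and Klc3.

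Kinesin-3 motors carry dense-core and synaptic vesicle precursors and endosomes. Kif1a, the dense-core vesicle motor, had 166 CPM in the transgenic library and 215 CPM in the wild-type library, a ratio of 0.773 [0.737, 0.810]. Intervals that excluded 1 were common among the 86 measured microtubule genes, with 23 below 1 and 17 above. Kif1a had the only such interval among the 6 kinesin-3 genes. Kif1b, its close relative, had 171 CPM in the transgenic library and 163 CPM in the wild-type library, a ratio of 1.05 [0.998, 1.1]. Per kilobase Kif1a stood above Kif1b in both libraries, at 17.8 against 23 CPM per kilobase for Kif1a and 9.72 against 9.26 CPM per kilobase for Kif1b, transgenic first. Kif13b, Kif1c, Kif13a and Kif16b had ratios between 0.932 and 0.986. Kif1bp, the kinesin-binding protein, had a ratio of 0.867 [0.794, 0.947].

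Kinesin-2 drives transport in cilia and along axons. Kif3b (0.942 [0.858, 1.04]), Kif3a (1.12 [0.979, 1.28]) and Kif3c (1.16 [0.972, 1.39]) all had intervals that held 1, as did Kif17 with 39 transgenic and 61 wild-type reads. Among other kinesins, Kif12, known from mouse beta cells, was the most abundant kinesin per kilobase, at 48.5 against 47.0 CPM per kilobase (transgenic first), and had a ratio of 1.03 [0.982, 1.09]. Kif21a, which restrains microtubule growth, had 179 CPM in the transgenic library and 154 CPM in the wild-type library, a ratio of 1.16 [1.1, 1.22], and the depolymerising kinesin Kif2a was at 1.24 [1.09, 1.41]. Kif19a, which shortens cilia in mice, was at 0.789 [0.709, 0.878]. Kif9, Kif27 and Kif21b had intervals that held 1. Kif24 (chromosome 4, 41390745 to 41464887, minus strand), with 42 transgenic and 29 wild-type reads, was called higher at 1.71 [1.04, 2.84], on few reads.

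Mitotic kinesins were scarce, as 8 of 11 had under 100 reads. Kif22, which moves chromosomes on the spindle (chromosome 7, 127027729 to 127042471, minus strand), had 92 transgenic and 47 wild-type reads, or 5.39 against 2.34 CPM with the transgenic value first, a ratio of 2.31 [1.61, 3.35]. The spindle motor Kif11 (0.925 [0.713, 1.2]) and the cytokinesis motor Kif20a (0.874 [0.575, 1.32]) had intervals that held 1. Over all 11 the reads were 372 in each library, at 21.8 CPM in the transgenic library and 18.5 CPM in the wild-type library. Of 8 proliferation markers checked beside them, Cenpf alone was called, lower, with 13 transgenic and 40 wild-type reads, and Mki67 had a ratio of 0.993 [0.735, 1.34], with a summed level of 18.1 against 20.8 CPM. Only 2 of these 8 markers had at least 100 reads, so a call was hard to reach for most. Ccna2, Kif23 and Kif18a had ratios past 1.5-fold upwards, and Ccnb1 and Kif4 downwards, all with intervals that held 1. Kif22 was 1 call among 10 mitotic kinesins with at least 10 reads, against 7.07% of protein-coding genes higher, so the count says little of the class.

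Microtubule-associated proteins bind along the lattice, and 0 of 8 with at least 100 reads passed 1.5-fold, against 5.17% higher and 5.43% lower of protein-coding genes, so the count says little of the class. Map2, the dendritic protein of neurons, was near level, with 225 CPM in the transgenic library and 211 CPM in the wild-type library, a ratio of 1.07 [1.02, 1.12]. Map1b, prominent in growing axons, had 168 CPM in the transgenic library and 208 CPM in the wild-type library, a ratio of 0.806 [0.768, 0.845], and Map1s, its small relative, was at 0.777 [0.724, 0.832]. Map7d1, which like Map7 recruits kinesin-1 to microtubules, was the most abundant of the class per kilobase and had its lowest ratio, with 119 CPM in the transgenic library and 168 CPM in the wild-type library and a ratio of 0.710 [0.672, 0.751]. Map7 itself was at 1.11 [1.04, 1.18]. The widely expressed Map4 (0.990 [0.915, 1.07]), Map7d2 (1.02 [0.858, 1.22]) and Map1a (0.821 [0.639, 1.05]) had intervals that held 1. The intervals of Map7 and Map7d1, members of a family, thus lay on opposite sides of 1.

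End-binding proteins track growing plus ends, and the 3 genes spread around 1. Mapre1 had 84.0 CPM in the transgenic library and 108 CPM in the wild-type library, a ratio of 0.780 [0.729, 0.834]. Mapre2 was at 0.955 [0.900, 1.01]. Mapre3, the form enriched in neurons, had 99.5 CPM in the transgenic library and 83.0 CPM in the wild-type library, a ratio of 1.2 [1.12, 1.28]. Per kilobase Mapre3 was the most abundant of the 3 in both libraries, at 28.8 against 24.0 CPM per kilobase, transgenic first.

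Stathmins bind free tubulin dimers and destabilise microtubules, and all 4 genes had ratios above 1 with intervals that excluded 1. Such intervals were common, as 17 of the 86 measured genes had intervals above 1 and 23 below. Their share over all protein-coding genes was not counted. At 1.5-fold 2 of the 4 stathmins were called higher, against 7.07% of protein-coding genes with at least 10 reads, which says little of a class this small. Stmn2, a growth-associated stathmin of neurons (ENSMUSG00000027500, chromosome 3, 8509360 to 8561606, plus strand), had 251 transgenic and 150 wild-type reads, or 14.7 against 7.46 CPM with the transgenic value first, a ratio of 1.97 [1.61, 2.43]. Stmn4 (chromosome 14, 66344296 to 66361680, plus strand) had 28 transgenic and 15 wild-type reads, a ratio of 2.20 [1.14, 4.44]. Stmn3, the most abundant per kilobase at 23.9 against 20.5 CPM per kilobase (transgenic first), had a ratio of 1.17 [1.02, 1.33], and Stmn1, the form of dividing and many other cells, 1.26 [1.01, 1.56]. Beside them, of 8 Schwann and neural cell markers 2 were at least 1.5-fold higher (Nefl, 49 transgenic and 24 wild-type reads, and Ngfr, 57 transgenic and 39 wild-type reads) and none lower. Those 8 had a summed level of 67.0 against 48.4 CPM, and none was at 0. Of them, Elavl4 was at 1.45 [1.27, 1.66] and Prph at 1.38 [1.16, 1.64]. Their part in the stathmin values was not tested.

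**Figure D4:**
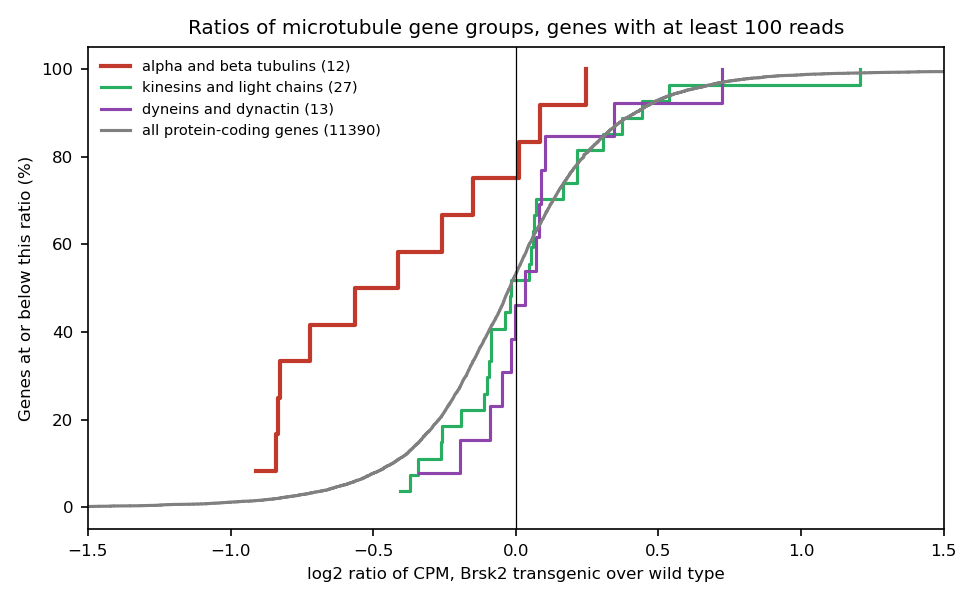
Cumulative share of genes (%) by log2 ratio of CPM, Brsk2 transgenic over wild type, for genes with at least 100 reads: 12 alpha and beta tubulins, 27 kinesins and light chains, 13 dyneins and dynactin genes and 11390 protein-coding genes. The tubulin line lies to the left of the others, with a median of -0.49, while kinesins (-0.02) and dyneins with dynactin (0.03) follow the line of all genes.

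Cytoplasmic dynein 1, the main minus-end motor, was near level in its common subunits. Dync1h1, the motor heavy chain, had 184 CPM in the transgenic library and 195 CPM in the wild-type library, a ratio of 0.940 [0.896, 0.985]. The ubiquitous intermediate chain Dync1i2 (0.999 [0.940, 1.06]) and the light intermediate chains Dync1li2 (1.02 [0.947, 1.1]) and Dync1li1 (1.06 [0.964, 1.16]) had intervals that held 1. The exception was Dync1i1, the neuronal intermediate chain (chromosome 6, 5725639 to 6028039, plus strand), which was called higher with 84 transgenic and 60 wild-type reads, a ratio of 1.65 [1.17, 2.34]. Per kilobase it stood far below Dync1i2, at 1.38 against 0.835 CPM per kilobase for Dync1i1 and 13.7 against 13.7 CPM per kilobase for Dync1i2. Summed over its 5 genes dynein 1 had 425 CPM in the transgenic library and 430.4 CPM in the wild-type library, a ratio of 0.987 [0.957, 1.02].

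Dynein 2, the retrograde motor of cilia, had a ratio of 1.06 [0.970, 1.17] for its heavy chain Dync2h1 and 1.27 [1.11, 1.45] for Dync2li1. Dynactin, which tethers dynein to cargo and microtubules, was near level too. Dctn3, a subunit of the shoulder, was the most abundant of all 95 genes per kilobase in the transgenic library, at 95 against 96.2 CPM per kilobase with the transgenic value first, and had a ratio of 0.988 [0.925, 1.05]. Dctn2, also known as dynamitin, was at 1.07 [1.01, 1.15], Dctn5 at 1.05 [0.939, 1.17] and Dctn6 at 0.968 [0.868, 1.08]. Dctn1, the large subunit that binds microtubules, had 86.6 CPM in the transgenic library and 99.2 CPM in the wild-type library, a ratio of 0.874 [0.816, 0.935], and Dctn4 had the lowest, 0.791 [0.728, 0.860]. The 6 dynactin genes summed to a ratio of 0.952 [0.923, 0.983].

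Outside these classes, 116 further microtubule genes were checked in groups: tubulin folding and modification enzymes, severing, minus-end, plus-end, dynein and kinesin adaptor proteins and other associated proteins. Of 101 with at least 100 reads, 2 were at least 1.5-fold higher, 2 lower and the median log2 ratio was -0.05, while 5.17% of protein-coding genes were higher and 5.43% lower. The higher ones were Tbcel, a tubulin-destabilising relative of cofactor E, with 24.6 CPM in the transgenic library and 14.4 CPM in the wild-type library and a ratio of 1.71 [1.47, 1.99], and the dynein light chain gene Dynlt1b (1.77 [1.43, 2.19]), which has near-identical copies and is uncertain. The lower ones were Tacc2, a centrosomal coiled-coil protein (0.638 [0.582, 0.701]), and Prc1, a midzone bundler with 51 transgenic and 94 wild-type reads (0.640 [0.446, 0.909]). With at least 10 reads 115 were measured, and Rilp (higher, 17 transgenic and 8 wild-type reads) and Cenpe (lower, 9 transgenic and 26 wild-type reads) were also called. By group, with at least 10 reads, 1 of 8 folding genes and 2 of 22 dynein regulators and adaptors were called higher. Called lower were 1 of 14 plus-end genes, 1 of 16 kinesin adaptors and C-terminal kinesins and 1 of 22 other associated proteins. No gene was called among 16 modification enzymes, 7 severing and 11 minus-end genes. At that read minimum 7.07% of protein-coding genes were higher and 5.51% lower, so counts of 0 to 2 in groups of this size are not results about them.

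Of the 8 genes in the tubulin folding group, 1 was called higher (Tbcel) and 0 lower. Against 7.07% and 5.51% of protein-coding genes, that says little of a group this small. Ttc5, the adaptor of tubulin RNA decay, was counted in that group. It had 43.4 CPM in the transgenic library and 35.0 CPM in the wild-type library, a ratio of 1.24 [1.12, 1.38] that did not pass 1.5-fold. The tubulin folding cofactor Tbca, which holds beta tubulin, was at 1.42 [1.31, 1.55] and Tbcb, which holds alpha tubulin, at 0.924 [0.853, 1.00]. Mapt, the gene of tau, was at 1.37 [1.23, 1.53], and the severing enzyme gene Katna1 at 0.708 [0.640, 0.783]. The dynein regulator Pafah1b1 (0.964 [0.923, 1.01]) and the kinesin adaptor Mapk8ip1 (0.978 [0.919, 1.04]) had intervals that held 1.

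The tubulin genes share a compact structure that the choice of genes did not use. The 5 alpha tubulins with at least 100 reads had a median locus of 5.64 kb and the 7 beta tubulins 4.39 kb, each with a median of 4 exons in their longest-spliced transcript, against medians of 25.2 kb and 10 exons for 11390 protein-coding genes. Over the 74 microtubule genes Spearman's rho between locus length and log2 ratio was 0.28, and without alpha and beta tubulins it was 0.13 over 62 genes. For the 11390 protein-coding genes it was -0.06. For GC content rho was of like size, -0.28 over the 74, -0.16 over the 62 and -0.13 over protein-coding genes. For gene length it was 0.03 over the 74, -0.23 over the 62 and -0.08 over protein-coding genes. These are descriptions across genes of the same 2 libraries, and genes are not independent replicates.

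The calls were read under other rules as well. At 2-fold, 2 of the 86 genes were higher and none lower, against 3.54% and 1.84% of protein-coding genes. Where the interval bound nearest 1 itself had to pass 1.5-fold, 2 were higher, Kif22 and Stmn2, and the same 5 tubulins were lower, against 2.3% and 2.09%.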

How the data were processed

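RNA from mouse pancreatic islets was extracted with Trizol and made into libraries with a TruSeq kit, per the labels' protocols. The deposited table holds whole-number read counts per gene, not normalized. No source used here names the aligner, the counter or the build. DESeq2 1.10.1 is named, per the submitters' processing notes, and the authors' deposited table of 108 genes gives log2 fold changes. Library totals were 16832312 (transgenic) and 20389499 (wild type) reads, so 1 read was worth 0.0586 and 0.0497 CPM.

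Counts were scaled by TMM in edgeR 4.0.16 (R 4.3.3), with factors of 1.01 and 0.987. Each gene's ratio was given an exact 95% Clopper-Pearson interval from its reads (SciPy 1.17.1, Python 3.11.15). A gene was called at 1.5-fold with an interval that excluded 1, where both libraries together held at least 10 reads. Genes in the text were those with at least 100 reads, those called, the Brsk2 gene and members of the lists. The script was tested on simulated counts. Levels per kilobase used the gene length column of the table. All 95 gene IDs were found in GENCODE M21 (GRCm38), 92 with the same start and end, and sequences were read from it. Named genes and lists were chosen with earlier results of these data known. Alternatives were DESeq2 1.42.0 size factors, TMM leaving out hormones and acinar markers, library totals, centring on GC content and length, and other read and fold limits.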

Additional observations from a re-analysis of the deposited data

How the results depend on the processing

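The 10 called genes were also called, on the same side, with DESeq2 size factors, with library totals, with TMM computed without hormones and acinar markers, and after centring on GC content and length in 10 bins each. Library totals added Kif23 to the higher genes, and centring added Kif23 and Kif5a. At 2-fold 2 genes were higher and 0 lower, so 0 alpha and beta tubulins were lower. With the interval bound past 1.5-fold 2 genes were higher, and with at least 100 reads 3 were. In the wider list of 116 genes, library totals gave 5 higher in place of 3, the 2-fold limit 1 higher and 1 lower, and the interval bound 0 higher and 0 lower. The summed alpha and beta tubulin ratio was 0.703 with library totals, against 0.684. Centring is set per gene and gives no summed ratio. Read shares not divided by length, transgenic first, were 44.8% and 46.2% for Tuba1a, 25.6% and 21.3% for Tuba1b, 18.2% and 20.1% for Tuba4a, 10.4% and 11.6% for Tuba1c, 24.7% and 32.7% for Tubb4b, 28.4% and 17.8% for Tubb5, 19.6% and 17.5% for Tubb2a, 13.3% and 18.6% for Tubb6, and 8.65% and 9.51% for Tubb3. By reads Tubb5 thus led the beta family in the transgenic library, and by length it did not. Of 75 named ratios, 6 crossed 1 with library totals (Klc1, Kif13b, Kif9, Map4, Dync1i2 and Dctn3) and 4 with centring (Klc1, Kif13b, Map4 and Dync1h1), none of them called. The median log2 ratio ran from -0.75 to -0.68 for alpha tubulins, from -0.41 to -0.22 for beta tubulins and from 0.30 to 0.65 for stathmins. It changed sign for the 74 genes together, from -0.02 to 0.02, and for dynactin, from -0.07 to 0.01. No paired analysis was possible because each group had 1 library, and none could be left out. Genes with under 100 reads, among them Kif24 and Stmn4, have wide intervals.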
